A study of Mus musculus with 12 samples.

Results

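Control segment 2 was compared with control segment 3 of the mouse epididymis in 4 of the 12 RNA-seq libraries of the series, 2 libraries a segment. All mice carried the WT genotype, and the control epididymides had no ligation of the efferent ducts, the operation that the other 6 libraries tested. A library came from 500 ng of pooled RNA of 2 mice and was prepared with a directional kit after polyadenylated RNA had been selected. The sequencing batches 3017 and 3097 each held 1 library of either segment, so the segments were compared within a batch, and a gene is reported as different here only where both batches gave the same direction. The 2 control libraries of segment 1, which lies next to segment 2, served as the reference for transcripts of that segment. The labels state neither the strain nor the age of the mice, and whether the segments of a batch came from the same animals is unknown. P-values here reflect how much pools vary, not how much mice vary. Their spread was estimated over all 12 libraries, the ligated ones included.

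The epididymis is the coiled duct in which sperm leaving the testis mature. Its head, the caput, is divided by connective tissue septa into segments, and the epithelium of each segment secretes its own mixture of beta-defensins, lipocalins, cystatins, ribonuclease-like proteins and protease inhibitors into the fluid around the sperm. Segment 1, the initial segment, receives fluid and growth factors from the testis through the efferent ducts, and in the mouse these keep ERK signalling active there. Genes switched on by ERK, such as the Sprouty, Spred and dual-specificity phosphatase genes and the ETS factors Etv1, Etv4 and Etv5, serve as a readout of that pathway.

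The promoters of 3 lipocalin genes are shown so that the letters near their starts can be seen beside their levels. Lcn2 passed the test and was higher in segment 2. Lcn8 and Lcn5, neighbours on chromosome 2, did not pass; Lcn8 held more CPM in both segment 2 libraries and Lcn5 in both segment 3 libraries, and Lcn2 lies elsewhere on that chromosome. The windows run from 250 bases before to 50 bases after the start of the gene (RefSeq, GRCm38.p6), and capitals mark letters of the C/EBP motif TTGCNNAA, searched on both strands. The Lcn8 window is chr2:25652868-25653167 on the plus strand, the Lcn5 window chr2:25657702-25658001 on the plus strand and the Lcn2 window chr2:32387690-32387989 on the minus strand.
Lcn8: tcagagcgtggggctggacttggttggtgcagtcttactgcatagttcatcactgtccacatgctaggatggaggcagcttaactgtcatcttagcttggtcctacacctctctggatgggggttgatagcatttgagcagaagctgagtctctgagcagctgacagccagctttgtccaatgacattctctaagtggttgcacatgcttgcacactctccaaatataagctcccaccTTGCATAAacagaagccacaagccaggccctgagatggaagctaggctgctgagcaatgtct
Lcn5: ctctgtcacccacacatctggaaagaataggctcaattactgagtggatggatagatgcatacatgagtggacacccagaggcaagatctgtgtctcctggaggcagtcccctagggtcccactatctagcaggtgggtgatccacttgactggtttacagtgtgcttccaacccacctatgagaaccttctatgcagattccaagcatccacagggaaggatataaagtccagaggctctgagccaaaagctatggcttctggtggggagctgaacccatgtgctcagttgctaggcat
Lcn2: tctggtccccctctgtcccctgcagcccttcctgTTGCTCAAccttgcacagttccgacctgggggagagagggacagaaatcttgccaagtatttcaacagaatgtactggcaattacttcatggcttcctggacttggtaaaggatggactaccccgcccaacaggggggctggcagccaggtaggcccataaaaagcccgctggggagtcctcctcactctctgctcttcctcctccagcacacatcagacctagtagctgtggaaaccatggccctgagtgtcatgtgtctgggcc
The motif was present once in the windows of Lcn8 and Lcn2 and was not in that of Lcn5. Of 32851 mouse promoter windows of this length, 10.8% held it. Neither TGTTTAC, a forkhead motif present in 3.6% of windows, nor GGAAGT, an ETS motif present in 23.8%, was in any of the 3 windows. The window of Nxpe2, a gene higher in segment 3, was also searched. It held GGAAGT once and neither of the other motifs. The 3 genes, from 13 tested lipocalins, and the motifs were picked by hand and not by a rule. Such a match describes letters and not a bound site, and its relation to the levels was not tested.

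The libraries held 30.5 and 32.3 M counts in segment 2 and 35.2 and 39.3 M in segment 3, in the order of batches 3017 and 3097 that is used throughout. Levels are CPM, counts scaled to a common library size with TMM factors. The tissue label was checked with Gpx5, a secreted glutathione peroxidase of the caput, which held 55960 and 62621 CPM in segment 2 and 53536 and 57397 CPM in segment 3. It took more counts than any other gene in the 4 libraries together. Adam7, a caput membrane protein gene, held 26468 and 20881 CPM in segment 2 and 17238 and 16039 CPM in segment 3. The segment 2 pools stood further apart than the segment 3 pools: chi-square per degree of freedom was 115.5 over 18924 genes between the segment 2 libraries and 80.1 over 19264 genes between those of segment 3.

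The distance between the segment 2 pools was large for transcripts of segment 1. These transcripts were taken as the 153 genes that averaged 20 CPM or more in control segment 1 and reached at least 10 times the segment 3 level there in each batch. In segment 2 of batch 3017 they stood at a median of 13.2% of their segment 1 level, with quartiles of 4.997% and 31.2%. In segment 2 of batch 3097 the median was 4.22%, with quartiles of 1.79% and 8.43%. The medians in segment 3 were 2.39% and 1.69%. The batch 3017 library was the higher of the segment 2 libraries for 148 of the 153 genes, by a median of 3.28-fold, against 1.16-fold between the segment 1 libraries and 1.15-fold between the segment 3 libraries for these genes. Over 14154 tested genes with at least 1 CPM in segment 2, the median ratio of the same libraries was 0.992.

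Segment 1 transcripts stood at widely different shares in segment 2. Teddm1a, a transmembrane protein gene of the epididymis, stood at 81.5% of its segment 1 level in segment 2 of batch 3017 and at 17.1% in batch 3097, and the beta-defensin gene Defb25 at 63.5% and 13.7%. Teddm2, of the same family as Teddm1a, stood at 1.14% and 0.89%, Crisp1, a cysteine-rich secretory protein gene, at 1.01% and 1.43%, and Defb48 at 1.66% and 0.45%. In batch 3017, 12 of the 153 genes were above 50% of the segment 1 level and 17 were below 2%, and in batch 3097 there were 42 below 2%. These transcripts were chosen from segment 1 and segment 3 values, so their levels in segment 2 are a description, and the genes named in this paragraph were picked after their values were seen. The part that this difference between the pools has in the results below was not tested; segment 1 values are given beside many of them, the main results included.

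**Figure D1:**
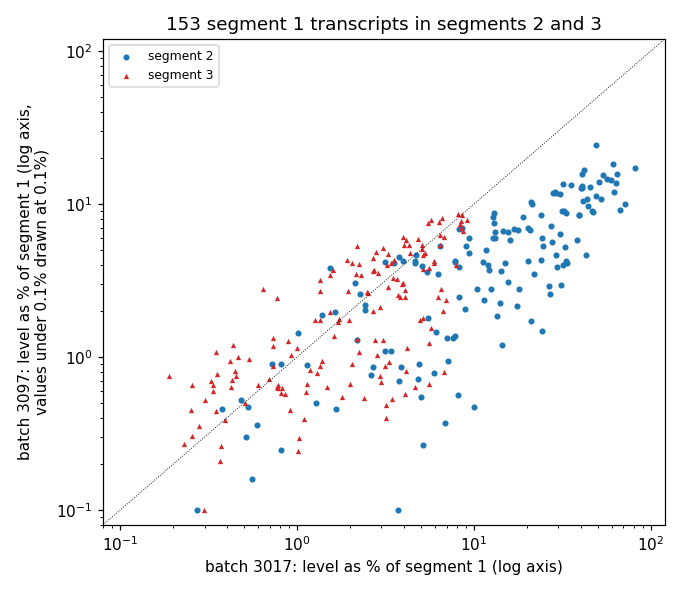
Level of 153 segment 1 transcripts in segments 2 (circles) and 3 (triangles) as a percent of control segment 1, with batch 3017 on the x axis and batch 3097 on the y axis, both logarithmic; values under 0.1% are drawn at 0.1%. The segment 2 points lie around medians of 13.2% in batch 3017 and 4.22% in batch 3097, mostly below the dotted line of equality, and the segment 3 points lie around 2.39% and 1.69%.

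Of 19213 genes tested with edgeR's quasi-likelihood test, 344 (1.79%) differed between segment 2 and segment 3 at an adjusted p under 0.05, and all 344 had the same direction in both batches. Higher levels in segment 2 were found for 176 (0.916%) and higher levels in segment 3 for 168 (0.874%). A ratio of at least 2-fold in both batches was reached by 83 of them (0.432%), 42 higher in segment 2 (0.219%) and 41 higher in segment 3 (0.213%). For comparison, 63.3% of all tested genes had the same sign in both batches whatever their p. Of these, 6056 were higher in segment 2 and 6103 higher in segment 3. Among all tested genes, 227 (1.18%) were at least 2-fold higher in segment 2 in both batches and 168 (0.874%) at least 2-fold higher in segment 3, so most genes with large differences in both batches did not pass the test. In batch 3017 alone 663 genes (3.45%) were at least 2-fold higher in segment 2 and 604 (3.14%) in segment 3, and in batch 3097 alone 354 (1.84%) and 283 (1.47%). At an unadjusted p under 0.05 there were 3904 genes (20.3%), and DESeq2 called 1587. These counts over 19213 genes, with the 344, are the comparison for each gene list below. The lists were chosen with earlier results of these data known, so their counts and medians are descriptions. Scaling by library totals alone gave 350 calls, split into 135 and 215, with the median of all genes at -0.04 on the log2 scale.

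The calls depend on the batch block and on single libraries. Without the block 0 genes passed, with 2936 at an unadjusted p under 0.05, and without the segment 3 library of batch 3097 0 passed, with 2666 at an unadjusted p under 0.05. Without the segment 2 library of batch 3017, the one with the higher segment 1 transcripts, 57 genes passed, of which 41 were among the 344, and without that of batch 3097 2384 passed. Without the segment 3 library of batch 3017 78 passed. DESeq2 called 1587 genes, 340 of them among the 344. The calls also depend on the libraries that set the spread. With the 6 control libraries alone 43 genes passed, 28 of them among the 344. With the 4 libraries of segments 2 and 3 alone 162 passed, 43 of them among the 344. The direction of all 344 genes was the same in each of these fits. For all 344 the libraries of the segments did not overlap, so refits of the same counts could hardly reverse a direction. The shared direction is therefore no separate support.

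**Figure D2:**
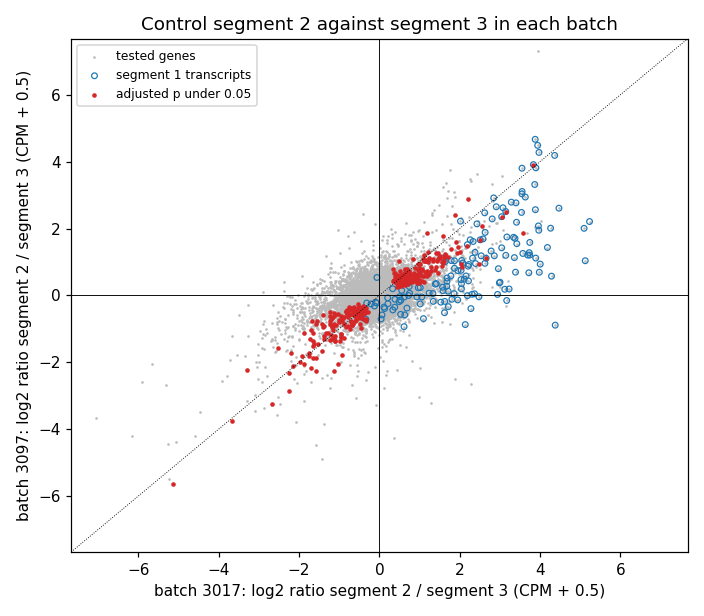
Log2 ratio of segment 2 to segment 3 (CPM + 0.5) in batch 3017 (x axis) against batch 3097 (y axis) for 19213 tested genes (grey). The 344 genes past the test (red) lie in the quadrants where both batches agree, while 37 of the 153 segment 1 transcripts (blue rings) have opposite signs in the 2 batches.

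Many of the genes shared an order of libraries. Of the 227 genes at least 2-fold higher in segment 2, 214 (94.3%) had their highest level in segment 2 of batch 3017, followed by segment 2 of batch 3097, segment 3 of batch 3017 and segment 3 of batch 3097. The reverse order held for 161 of the 168 genes (95.8%) at least 2-fold higher in segment 3. Of the genes past the test, 124 of 176 (70.5%) and 125 of 168 (74.4%) were in these orders. Among all tested genes with agreeing signs the same orders held for 28.8% and 28.6% (1744 and 1745 genes). These orders require that the segments do not overlap. That held for 222 of the 227 and all 168 of the 2-fold genes, and for all 176 and 168 genes past the test. It held for 3947 of 6056 and 3910 of 6103 genes with agreeing signs, so the percentages are not of like sets. For 130 of the 176 genes higher in segment 2 (73.9%), segment 1 lay above segment 2 in both batches, and for 27 it lay below. For 89 of the 168 genes higher in segment 3 (53.0%), segment 1 lay below segment 2 in both batches, and for 53 it lay above. Over all tested genes with agreeing signs, segment 1 lay beyond segment 2 in 44.3% and 44.9%.

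Segment 1 transcripts were found both among the genes that passed and among the large differences that did not. A gene higher in segment 2 was marked as a segment 1 transcript candidate where its segment 1 level was at least 4 times its segment 2 level in each batch, and 6 of the 176 met this: P4ha2, Hbegf, Hoxb1, Gm10832, Fah, an enzyme of tyrosine breakdown, and Pnp2, a purine nucleoside phosphorylase. Of the 153 segment 1 transcripts, 5 were among the 176, beside 176 of 19213 genes tested: P4ha2, Slc13a2, Pdlim4, Gm10832 and 9230105E05Rik. Their definition asks for a low segment 3 level, so the share is a description. Of the 227 genes at least 2-fold higher in segment 2 in both batches, 63 were segment 1 transcripts and 23 were so marked. Lcn8, a lipocalin gene of the initial segment, was one of the marked genes that did not pass, with 3318 and 210 CPM in segment 2, 94.6 and 102 CPM in segment 3, and 13688 and 14223 CPM in segment 1 (log2 fold change 3.90 ± 1.15 SE, adjusted p = 0.141). Its segment 2 libraries were 24.2% and 1.48% of segment 1. The marked genes Adam28, Ovch2, Ly6g5b, Actg2 and Cst12 also missed the threshold, at adjusted p-values from 0.0606 (Ovch2) to 0.270 (Cst12).

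Among genes higher in segment 3, Nxpe2 had the largest log2 fold change of those named. Nxpe2, of the neurexophilin and PC-esterase domain family (ENSMUSG00000032028, GRCm38 chromosome 9, 48318006 to 48353454, minus strand), held 0.172 and 1.22 CPM in segment 2 (5 and 38 counts), 23.0 and 84.7 CPM in segment 3, and 0.250 and 0.566 CPM in segment 1. The segments did not overlap, as for all 344 genes past the test. Over all 19213 tested genes, 3947 higher in segment 2 and 3910 higher in segment 3 in both batches did not overlap. The log2 fold change of Nxpe2 was -6.17 ± 0.88 (SE, segment 2 minus segment 3, adjusted p = 0.0427). Npy, which encodes neuropeptide Y (chromosome 6, 49822710 to 49829507), held 0.0688 and 0.547 CPM in segment 2 (2 and 17 counts), 6.78 and 13.7 CPM in segment 3 and 0.050 and 0.209 CPM in segment 1 (-5.02 ± 0.73, adjusted p = 0.0320). For both genes the segment 2 level was a small part of that in segment 3 in either batch. In segment 2 of batch 3017 Npy lay under the 3-count floor of 0.103 CPM. Log2 ratios of CPM + 0.5 within batches were smaller, at -5.13 and -5.63 for Nxpe2 and -3.68 and -3.76 for Npy. The sizes of these differences therefore rest on low segment 2 counts.

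Stra6, the cell surface receptor through which cells take up retinol from its binding protein (chromosome 9, 58063788 to 58153996), held 1.31 and 5.63 CPM in segment 2, 17.2 and 28.2 CPM in segment 3 and 1.98 and 3.28 CPM in segment 1 (-2.77 ± 0.40, adjusted p = 0.0359). It was the only one of 18 tested retinoid genes to pass. Elf5, an ETS family transcription factor of epithelia (chromosome 2, 103411688 to 103450989), held 0.619 and 2.77 CPM in segment 2, 4.83 and 15.9 CPM in segment 3, and 0.050 and 0.089 CPM in segment 1 (-2.60 ± 0.45, adjusted p = 0.0380). Its levels thus stood in the order segment 1, segment 2, segment 3 in both batches.

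Further genes higher in segment 3 came from several kinds of protein. Synm, which encodes the intermediate filament protein synemin, held 8.91 and 16.1 CPM in segment 2, 31.0 and 54.3 CPM in segment 3 and 15.8 and 17.6 CPM in segment 1 (-1.77 ± 0.20, adjusted p = 0.0183). Fosl2, a subunit of the AP-1 transcription factor, held 10.7 and 13.6 CPM in segment 2 and 32.8 and 50.6 CPM in segment 3 (-1.78 ± 0.22, adjusted p = 0.0190). Pon3, a lactonase of the paraoxonase family, held 7.88 and 18.4 CPM in segment 2 and 23.8 and 51.4 CPM in segment 3 (-1.53 ± 0.19, adjusted p = 0.0183). The other genes of this direction named by size had log2 fold changes between -1.89 and -2.05: the potassium channel gene Kcna1, the cysteine protease gene Blmh (bleomycin hydrolase), the myosin heavy chain gene Myh13, the epithelial membrane protein gene Emp2 and the GABA receptor subunit gene Gabra4. For Pon3, Kcna1, Myh13 and Gabra4 segment 1 was lower than segment 2 in both batches, as it was for Elf5 and Tgfa. For Blmh and Synm segment 1 was higher than segment 2 in both batches.

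The genes higher in segment 2 included secreted proteins, a transcription factor and enzymes. Slc13a2, a sodium-coupled dicarboxylate transporter (chromosome 11, 78397087 to 78422217), held 22.4 and 4.47 CPM in segment 2, 2.27 and 0.474 CPM in segment 3, and 39.8 and 30.7 CPM in segment 1 (3.21 ± 0.55, adjusted p = 0.0441). P4ha2, an alpha subunit of collagen prolyl 4-hydroxylase (chromosome 11, 54100095 to 54131665), held 85.1 and 26.3 CPM in segment 2, 9.17 and 4.21 CPM in segment 3, and 409 and 389 CPM in segment 1 (2.97 ± 0.45, adjusted p = 0.0438). Both are segment 1 transcripts by the rule above. In segment 2, P4ha2 was at 20.8% and 6.75% of segment 1 and Slc13a2 at 56.2% and 14.6%.

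Cebpb, which encodes the transcription factor C/EBP beta (ENSMUSG00000056501, chromosome 2, 167688915 to 167690418), held 65.5 and 28.4 CPM in segment 2, 13.7 and 3.45 CPM in segment 3, and 117 and 54.4 CPM in segment 1 (2.56 ± 0.40, adjusted p = 0.0427). It was at 56.2% and 52.1% of segment 1, a share close between the batches, unlike the shares of P4ha2 and Slc13a2. The level of Cebpb differed between the batches in the same direction in segment 1 (117 and 54.4 CPM), segment 2 and segment 3. The close share therefore does not mean that its level was steady between the batches. Wfdc2, a secreted protein with whey acidic protein domains (chromosome 2, 164562413 to 164568510), held 19.3 and 12.1 CPM in segment 2, 4.85 and 1.87 CPM in segment 3, and 8.33 and 10.4 CPM in segment 1 (2.26 ± 0.43, adjusted p = 0.0487). It is one of the named genes with a higher level in segment 2 than in both neighbouring segments.

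Lcn2, which encodes lipocalin 2, a binder of bacterial iron carriers (ENSMUSG00000026822, chromosome 2, 32384633 to 32388252), held 6310 and 3212 CPM in segment 2, 2043 and 1402 CPM in segment 3, and 5883 and 5724 CPM in segment 1 (1.45 ± 0.25, adjusted p = 0.0371). Pcsk5, a proprotein convertase that cleaves secreted precursors, held 243 and 130 CPM in segment 2, 87.7 and 53.7 CPM in segment 3 and 678 and 609 CPM in segment 1 (1.39 ± 0.22, adjusted p = 0.0330). Dbi, the acyl-CoA binding protein gene, held 82.8 and 54.8 CPM in segment 2 and 35.5 and 21.9 CPM in segment 3 (1.26 ± 0.13, adjusted p = 0.0183), with 167 and 138 CPM in segment 1. Of the 24 genes named by size, Dbi and Synm passed in 3 of the 4 fits that left out a library, and none passed in all 4. Pdlim4, a PDZ and LIM domain gene, held 76.6 and 27.5 CPM in segment 2, 13.0 and 8.34 CPM in segment 3 and 156 and 113 CPM in segment 1 (2.22 ± 0.37, adjusted p = 0.0463). Plekha3 held 790.3 and 307 CPM in segment 2, 195.5 and 124 CPM in segment 3 and 915 and 816 CPM in segment 1 (1.73 ± 0.31, adjusted p = 0.0491). Kctd1 held 43.9 and 15.6 CPM in segment 2, 10.9 and 5.34 CPM in segment 3 and 99.2 and 78.5 CPM in segment 1 (1.82 ± 0.33, adjusted p = 0.0493). Piwil4 held 17.4 and 11.5 CPM in segment 2, 7.15 and 5.16 CPM in segment 3 and 20.7 and 19.4 CPM in segment 1 (1.23 ± 0.23, adjusted p = 0.0374). For all 4 of these genes segment 1 lay above segment 2 in both batches.

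**Figure D3:**
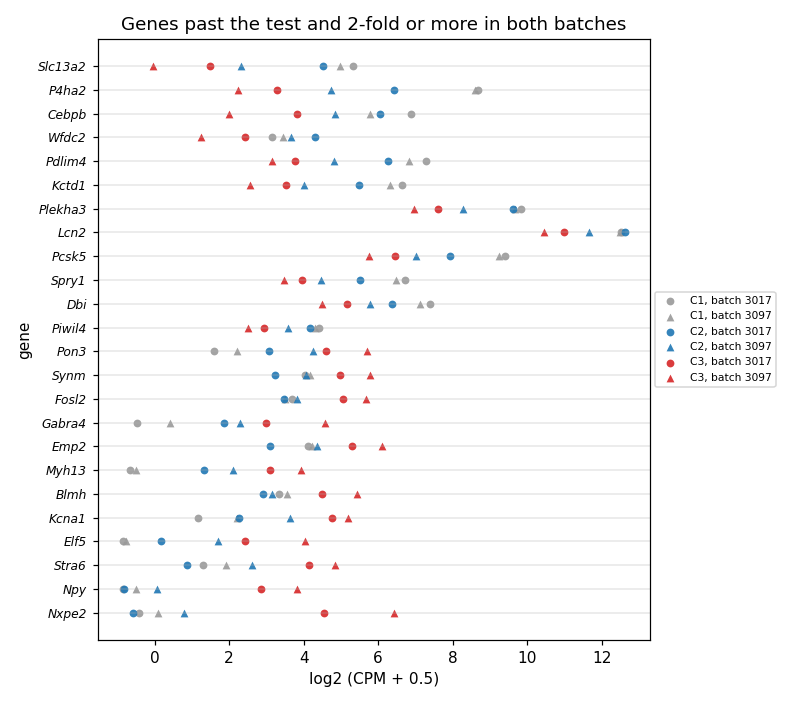
Levels of the 12 named genes with the largest log2 fold changes towards segment 3 and the 12 with the largest towards segment 2. The comparison is between segments 2 and 3, and segment 1 can be higher than both. The x axis is log2 (CPM + 0.5). Grey is segment 1, blue segment 2 and red segment 3, with circles for batch 3017 and triangles for batch 3097. The blue and red points of a gene do not overlap, as for all 344 genes past the test, from which these were picked. For Nxpe2 they lie furthest apart (0.172 and 1.22 CPM against 23.0 and 84.7 CPM).

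Secreted protein families held large differences in both directions, most of which did not pass the test. Of 31 tested beta-defensin genes, whose products are secreted antimicrobial and sperm-coating peptides, 1 passed: Defb42 (chromosome 14, 63046991 to 63058149), with 2172 and 1779 CPM in segment 2 and 1218 and 1193 CPM in segment 3 (0.71 ± 0.13, adjusted p = 0.0363). At least 2-fold in both batches were 4 members higher in segment 2 and 5 higher in segment 3, beside 227 and 168 of 19213 tested genes. The median fitted log2 fold change was -0.63 (-0.16 and -0.29 for the log2 ratios of CPM + 0.5 within batches 3017 and 3097), against -0.002 over all tested genes. Close defensin genes can share reads, so how their counts were divided is uncertain, and the members below other than Defb42 and Defb15 were chosen after their values were seen.

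The defensin genes are given by chromosome as counts, with no test of a difference between chromosomes. A mean of 1 CPM or more in segment 2 or segment 3 was reached by 9 of 13 on chromosome 8 and 8 of 11 on chromosome 2. On chromosome 14 it was reached by 4 of 5, so the signs of the others rest on low levels. Over all 19213 tested genes, 6056 were higher in segment 2 and 6103 higher in segment 3 in both batches. On chromosome 8, where 13 were tested, 8 were higher in segment 3 in both batches, 1 was higher in segment 2 and 4 had opposite signs, and all 5 of the 2-fold members higher in segment 3 lie there. Defb15 held 4.64 and 74.7 CPM in segment 2, 203 and 478 CPM in segment 3 and 0.476 and 1.37 CPM in segment 1 (adjusted p = 0.198). Defb12 held 17.9 and 156 CPM in segment 2 and 257 and 829 CPM in segment 3 (adjusted p = 0.120). On chromosome 2, where 11 were tested, 4 were higher in segment 2, 5 higher in segment 3 and 2 of opposite sign, and Defb20 held 8998 and 4287 CPM in segment 2 against 2282 and 1200.0 CPM in segment 3 (adjusted p = 0.0650). Both tested genes on chromosome 1 were higher in segment 2, as were 3 of 5 on chromosome 14, the other 2 having opposite signs. Defb47, on chromosome 14, held 2836 and 653 CPM in segment 2, 183 and 3.63 CPM in segment 3 and 337 and 747 CPM in segment 1 (adjusted p = 0.198).

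**Figure D4:**
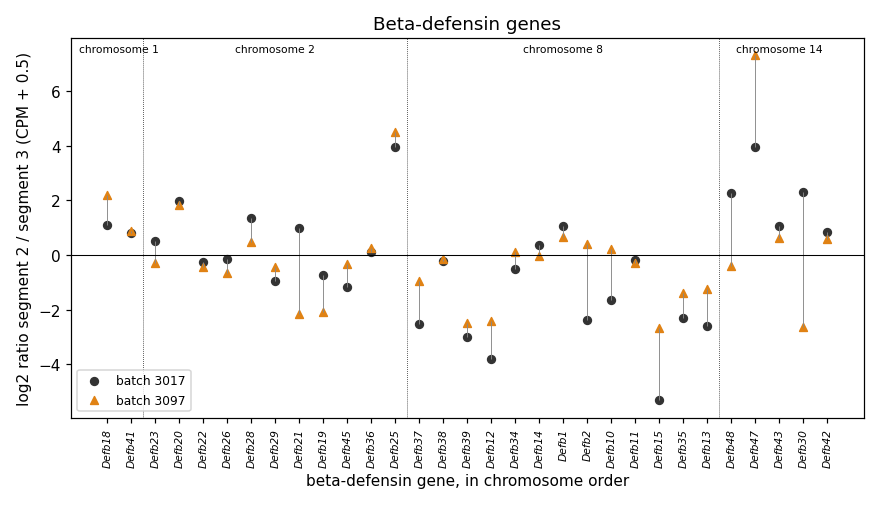
Log2 ratio of segment 2 to segment 3 (CPM + 0.5) of 31 beta-defensin genes in chromosome order, with circles for batch 3017 and triangles for batch 3097. Of the 13 genes on chromosome 8, 8 lie below 0 in both batches; Defb42 is the member that passed the test.

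Lipocalins, carriers of small hydrophobic molecules, had 1 of 13 tested members past the test, Lcn2. Another 4 were at least 2-fold higher in segment 2 in both batches and 1, Lcn5, at least 2-fold higher in segment 3. Lcn5, an epididymal retinoic acid binding protein (chromosome 2, 25657952 to 25661977), held 294 and 624 CPM in segment 2, 1218 and 3848 CPM in segment 3 and 52.9 and 87.1 CPM in segment 1 (-2.46 ± 0.95, adjusted p = 0.230). Its neighbour Lcn8 ran the other way, and Lcn9 held 2565 and 262 CPM in segment 2, 67.7 and 56.4 CPM in segment 3 and 8225 and 8935 CPM in segment 1 (adjusted p = 0.0909). Lcn8 and Lcn9 are segment 1 transcripts by the rule above. The segment 2 level of Lcn5 was above that of segment 1 and below that of segment 3 in both batches.

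Cystatins, inhibitors of cysteine proteases and their relatives, had 1 of 10 tested members past the test: Cst3, the broadly expressed cystatin C gene, at 533 and 525 CPM in segment 2 and 377 and 371 CPM in segment 3 (0.50 ± 0.09, adjusted p = 0.0320). Cst8 and Cst11, cystatin-related genes of the epididymis, differed more in size and did not pass. Cst8 held 1007 and 107 CPM in segment 2 and 29.0 and 26.2 CPM in segment 3 (4.20 ± 1.04, adjusted p = 0.103), with 3748 and 4128 CPM in segment 1. It is a segment 1 transcript by the rule above. Cst11 held 3986 and 2133 CPM in segment 2, 848 and 421 CPM in segment 3 and 3285 and 4103 CPM in segment 1 (2.27 ± 0.64, adjusted p = 0.123).

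Protease inhibitors of the Spink and WAP families had 1 of 29 tested members past the test, Wfdc2, with 4 members at least 2-fold higher in each segment in both batches. Over all 19213 tested genes these 2-fold counts were 227 in segment 2 and 168 in segment 3. Spink8 held 219 and 431 CPM in segment 2 and 593 and 949.5 CPM in segment 3 (-1.25 ± 0.51, adjusted p = 0.240), and Spink11 held 3.47 and 106 CPM in segment 2 and 531 and 1344 CPM in segment 3 (-4.34 ± 1.36, adjusted p = 0.162). By edgeR 0 of 22 tested serpins and 0 of 9 RNase A family genes passed, with 3 and 6 at an unadjusted p under 0.05 and 2 and 3 called by DESeq2. Serpina1f held 2.31 and 27.8 CPM in segment 2 and 201 and 527 CPM in segment 3 (adjusted p = 0.157). Rnase13 held 4.68 and 23.9 CPM in segment 2 and 123.3 and 447 CPM in segment 3 (adjusted p = 0.0646), while Rnase10 held 3863 and 941 CPM in segment 2, 259 and 66.5 CPM in segment 3 and 8713 and 9634 CPM in segment 1 (adjusted p = 0.0740). Rnase10 is a segment 1 transcript by the rule above. These genes outside the test are given because both batches showed at least 2-fold in the same direction, and they were chosen after their values were seen.

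Clu, which encodes the chaperone clusterin, was among the 6 genes with the most counts and held 2251 and 10049 CPM in segment 2, 16839 and 22573 CPM in segment 3 and 452 and 564 CPM in segment 1 (-1.77 ± 0.57, adjusted p = 0.150). Mfge8, a secreted milk fat globule glycoprotein, held 14924 and 5355 CPM in segment 2, 2134 and 537 CPM in segment 3 and 14709 and 14583 CPM in segment 1 (2.97 ± 0.61, adjusted p = 0.0683). Among smaller differences, Gpx4, a glutathione peroxidase that reduces lipid hydroperoxides, held 231 and 192 CPM in segment 2 and 150 and 148 CPM in segment 3 (0.50 ± 0.08, adjusted p = 0.0278). Ly6a, a GPI-anchored Ly6 family gene, passed higher in segment 2 (0.66 ± 0.10, adjusted p = 0.0261), and Adam33, a metalloprotease gene, passed higher in segment 3 (-2.47 ± 0.39, adjusted p = 0.0278).

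Of 22 tested ERK readout genes, 14 were higher in segment 2 in both batches, 3 were higher in segment 3 and 5 had opposite signs. The test was passed by 3 of them, all higher in segment 2, and by 13 with DESeq2, and 15 were at an unadjusted p under 0.05. Over all 19213 genes these counts were 344, 1587 and 3904, and 6056 were higher in segment 2 in both batches. A ratio of at least 2-fold in both batches was reached by 8 of the 22 list genes, all higher in segment 2, 2 of which passed. The median log2 fold change of the list was 1.03, with 1.24 in batch 3017 and 0.60 in batch 3097, against -0.002 over all tested genes. The list was chosen with earlier results of these data known, so its counts and median are a description. It also holds segment 1 transcripts, some of which are named in the next paragraph. Spry1, a Sprouty feedback inhibitor of receptor tyrosine kinase signalling (chromosome 3, 37639947 to 37644598), held 45.1 and 21.7 CPM in segment 2, 15.1 and 10.5 CPM in segment 3 and 105 and 89.4 CPM in segment 1 (1.34 ± 0.19, adjusted p = 0.0268). Spred3, a Sprouty-related inhibitor, held 7.84 and 3.70 CPM in segment 2, 1.68 and 1.26 CPM in segment 3 and 8.33 and 9.35 CPM in segment 1 (1.94 ± 0.32, adjusted p = 0.0282). Spry2 held 22.6 and 19.0 CPM in segment 2, 13.6 and 12.1 CPM in segment 3 and 35.6 and 31.3 CPM in segment 1 (0.69 ± 0.13, adjusted p = 0.0365).

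The ETS factor and phosphatase genes of this list did not pass the edgeR test. Etv5 held 380 and 68.7 CPM in segment 2, 31.9 and 7.53 CPM in segment 3 and 966 and 810 CPM in segment 1 (3.46 ± 0.84, adjusted p = 0.1003). Dusp6, a phosphatase that inactivates ERK, held 66.4 and 20.6 CPM in segment 2, 14.1 and 6.87 CPM in segment 3 and 349 and 251 CPM in segment 1 (1.99 ± 0.43, adjusted p = 0.0778). Etv4 held 6.26 and 1.42 CPM in segment 2 and 1.25 and 1.61 CPM in segment 3, so its batches had opposite signs (adjusted p = 0.348). Its segment 1 level was 233.6 and 165.2 CPM. Etv4, Etv5 and Dusp6 are segment 1 transcripts by the rule above, and Dusp6 was also marked as a candidate. Summed over the list, levels were 3135 and 2452 CPM in segment 1, 1026 and 432 CPM in segment 2 and 366 and 282 CPM in segment 3.

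**Figure D5:**
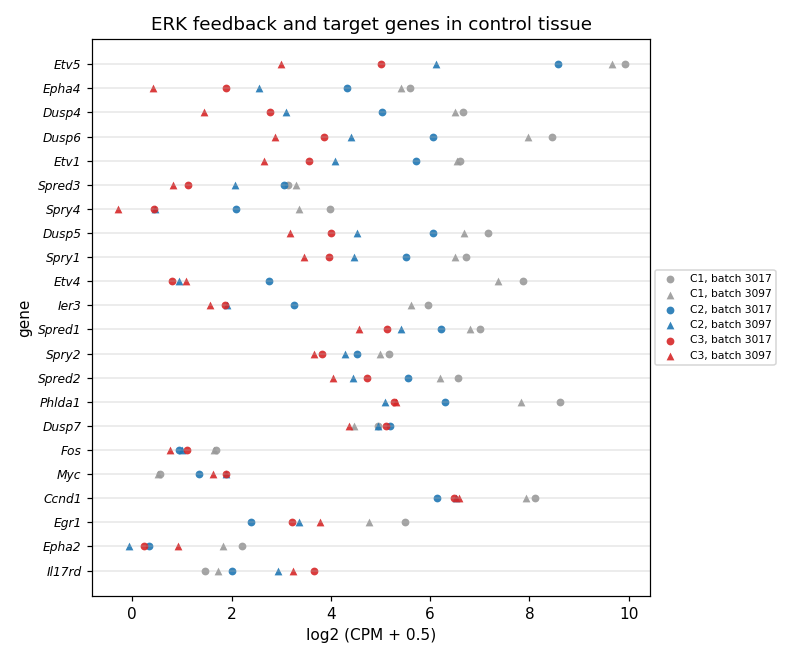
Levels of 22 ERK feedback and target genes as log2 (CPM + 0.5) on the x axis; grey is segment 1, blue segment 2 and red segment 3, with circles for batch 3017 and triangles for batch 3097, ordered by log2 fold change. Spry1, Spred3 and Spry2 are the members that passed; for Etv5 the segment 2 libraries lie apart, at 380 and 68.7 CPM.

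Growth factors and their receptors had 3 of 35 tested members past the test, beside 344 of 19213 over all genes. Tgfa and Erbb2, a ligand of the EGF receptor and a partner of that receptor, were higher in segment 3: Tgfa held 9.32 and 13.0 CPM in segment 2 and 17.9 and 21.2 CPM in segment 3 (-0.81 ± 0.13, adjusted p = 0.0278), and Erbb2 held 53.7 and 52.4 CPM in segment 2 and 77.6 and 82.2 CPM in segment 3 (-0.59 ± 0.10, adjusted p = 0.0279). Hbegf, another ligand of the EGF receptor, was higher in segment 2, at 7.09 and 3.61 CPM against 2.24 and 2.08 CPM (1.26 ± 0.24, adjusted p = 0.0396), with 32.6 and 23.1 CPM in segment 1. The ligands of this receptor therefore passed in both directions.

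Sex steroid genes were represented by Esr1, the estrogen receptor alpha gene, which was the 1 of 17 tested androgen and steroid genes to pass. It held 45.5 and 54.8 CPM in segment 2, 78.3 and 74.8 CPM in segment 3 and 29.6 and 30.1 CPM in segment 1 (-0.61 ± 0.09, adjusted p = 0.0245). Srd5a1, a steroid 5-alpha-reductase gene, held 32.2 and 10.6 CPM in segment 2, 6.98 and 3.66 CPM in segment 3 and 63.6 and 54.5 CPM in segment 1 (1.95 ± 0.42, adjusted p = 0.0713).

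Of 279 tested solute carrier genes, 4 passed higher in segment 2 and 3 higher in segment 3, which is 7 of 279 beside 344 of 19213 over all genes. Those higher in segment 2 were Slc13a2, Slc25a29, Slc19a1 and Slc39a4. Those higher in segment 3 were Slc41a2, a magnesium transporter, at 89.6 and 94.2 CPM in segment 2 and 148 and 160 CPM in segment 3 (-0.74 ± 0.10, adjusted p = 0.0183), together with Slc39a14, which carries zinc and manganese, and Slc17a5, the lysosomal sialic acid exporter. Slc38a5, an amino acid transporter gene with more counts than any other solute carrier here, held 6918 and 9765 CPM in segment 2 and 8957 and 9475 CPM in segment 3 (-0.17 ± 0.24, adjusted p = 0.754). Stard4, which moves cholesterol between membranes, was the 1 of 24 cholesterol genes to pass, at 13.9 and 24.3 CPM in segment 2 and 36.8 and 46.0 CPM in segment 3 (-1.15 ± 0.15, adjusted p = 0.0183).

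Hox genes, which set position along the body axis, had 2 of 30 tested members past the test, beside 344 of 19213 over all genes. Hoxd9 held 83.9 and 73.0 CPM in segment 2 and 61.4 and 51.7 CPM in segment 3 (0.47 ± 0.09, adjusted p = 0.0363), and Hoxb1 held 3.20 and 1.29 CPM in segment 2 and 0.880 and 0.368 CPM in segment 3 (1.82 ± 0.31, adjusted p = 0.0311). Hoxb1 stood at 15.4 and 9.89 CPM in segment 1 and so met the segment 1 mark. Of the other transcription factor genes, Elf5 was the 1 of 27 tested to pass. Pax2 held 36.0 and 35.5 CPM in segment 2 and 61.9 and 51.7 CPM in segment 3 (-0.65 ± 0.22, adjusted p = 0.150).

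Interferon response genes had 3 of 29 tested members past the test, all higher in segment 2, beside 344 of 19213 over all genes. The median log2 fold change was 0.49, with 0.52 in batch 3017 and 0.20 in batch 3097. In both batches 18 were higher in segment 2 and 2 higher in segment 3, beside 6056 and 6103 of all tested genes. This list too was chosen with earlier results known, so these values are a description. The summed level was 327 and 312 CPM in segment 2 and 290 and 329 CPM in segment 3, so the sum was lower in segment 2 in batch 3097. Isg15, a ubiquitin-like protein gene, held 8.19 and 5.28 CPM in segment 2 and 2.16 and 2.13 CPM in segment 3 (1.62 ± 0.22, adjusted p = 0.0183), with 6.11 and 6.34 CPM in segment 1. Oas1a, an oligoadenylate synthetase gene, held 3.78 and 2.83 CPM in segment 2 and 1.39 and 1.5 CPM in segment 3 (1.18 ± 0.25, adjusted p = 0.0487).

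Markers of other cell types were compared as whole lists, since in bulk tissue fewer cells of a type and less RNA per cell cannot be told apart. Of 25 macrophage and dendritic cell genes, C1qa and C1qb, subunits of complement C1q, passed higher in segment 2. C1qb held 16.7 and 18.1 CPM in segment 2 and 9.68 and 13.2 CPM in segment 3 (0.62 ± 0.11, adjusted p = 0.0363), while the list's summed level was 237 and 239 CPM in segment 2 and 222 and 243 CPM in segment 3. Of 14 smooth muscle genes, Synm passed higher in segment 3, and the summed level was 1125 and 753 CPM in segment 2 and 682 and 797 CPM in segment 3. Actg2, a smooth muscle actin gene that is also a segment 1 transcript, made up 400.2 of the 1125 CPM. By edgeR 0 genes passed among 28 sperm and spermatid, 18 ciliated cell, 16 clear and narrow cell, 12 basal cell, 22 fibroblast, 18 endothelial, 16 lymphocyte and 7 blood genes. In that order, 2, 3, 6, 3, 4, 0, 3 and 1 were at an unadjusted p under 0.05 and 0, 0, 4, 1, 1, 0, 1 and 0 were called by DESeq2. Over all 19213 genes tested, 3904 were at an unadjusted p under 0.05 and DESeq2 called 1587. Summed sperm and spermatid levels were 602 and 552 CPM in segment 2 and 604 and 425 CPM in segment 3, and summed lymphocyte levels were 95.9 and 31.3 CPM against 20.9 and 19.1 CPM. Klrb1c, which lies within that last list and is also a segment 1 transcript, held 82.6 of the 95.9 CPM. Its levels were 553 and 424 CPM in segment 1, 82.6 and 17.3 CPM in segment 2 and 10.9 and 7.34 CPM in segment 3. Of 18 general epithelium genes, Krt7, a keratin of simple epithelia, passed higher in segment 2, at 113 and 63.5 CPM against 42.8 and 37.1 CPM in segment 3 and 87.4 and 74.2 CPM in segment 1 (1.11 ± 0.21, adjusted p = 0.0487). The part of other cells in the results was not tested.

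The remaining lists held few genes past the test. Of 28 initial segment genes, Lcn2 passed. In both batches 16 were higher in segment 2 and 3 higher in segment 3, beside 6056 and 6103 of all 19213 genes. The median log2 fold change was 1.22, with 1.79 in batch 3017 and 0.58 in batch 3097. The list was chosen with earlier results of these data known, so these values are a description. Of 41 caput secretory genes, Defb42 passed, and the median was 0.01. Of 30 lysosomal genes, the cathepsin gene Ctsh passed higher in segment 3 (-0.81 ± 0.15, adjusted p = 0.0396) and the cathepsin gene Ctsz higher in segment 2 (0.58 ± 0.12, adjusted p = 0.0493). Ctsh held 47.1 and 61.2 CPM in segment 2, 76.25 and 114 CPM in segment 3 and 255 and 257 CPM in segment 1, where it was highest. By edgeR 0 genes passed among 6 CRISP, 9 carboxylesterase, 21 glutathione transferase, 48 channel and carbonic anhydrase, 25 tight junction, 29 Wnt and Hedgehog, 24 unfolded protein response, 81 ribosomal protein, 25 proliferation, 8 testis somatic and efferent duct and 1 adipocyte genes. In that order, 2, 4, 7, 11, 9, 10, 2, 4, 1, 1 and 0 were at an unadjusted p under 0.05 and 2, 3, 4, 5, 4, 5, 1, 1, 0, 1 and 0 were called by DESeq2. Among the ribosomal protein genes 50 were higher in segment 3 and 9 higher in segment 2 in both batches, at a median log2 fold change of -0.09. Over all 19213 genes tested, 6103 and 6056 were.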

How the data were processed

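Polyadenylated RNA was measured in 12 libraries, of which 4 are compared here and all 12 enter the fit. The authors deposited whole-number gene counts without normalization, 1 table per batch, with columns named by group; the labels' replicate numbers could not be matched to a batch, so a library is named by its group and batch. Per the submitters' processing notes, tools included Trim Galore 0.6.0, cutadapt, FastQC and STAR 2.7.0e, with GRCm38 as the build. The sources used here give neither the counting tool nor its strand setting, so antisense and overlapping genes are uncertain. All 55536 identifiers matched GENCODE mouse release 21, the source of coordinates.

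From the deposited counts, genes were kept by filterByExpr (minimum count 10; 19213 genes) and fitted with edgeR 4.0.16 (limma 3.58.1, R 4.3.3): glmQLFit, robust, with TMM factors, 6 groups and batch, then a two-sided glmQLFTest of segment 2 minus segment 3, Benjamini-Hochberg adjusted. Residual degrees of freedom were 5 and the median prior 4.55. Batch is the block because the series design states it: deviations of segment 2 and 3 libraries of a batch correlated at 0.33 across genes, and 1803 genes differed between batches. A fold within a batch uses CPM + 0.5. A floor of 3 counts is worth 0.0789 to 0.103 CPM in the 4 libraries, and floors cover counting error only. The members and the 43 gene lists were chosen with earlier results of these data known. Genes were named by rule: the 12 largest and 12 smallest log2 fold changes among genes past the test that were at least 2-fold in both batches, with 10 CPM or more in the higher group and an assigned symbol; up to 4 passing members per list with 1 CPM or more; the 6 genes with most counts; fixed sentinel genes; and the 6 marked segment 1 transcripts highest in segment 1. Genes named outside it were chosen after their values were seen. Replicates of segments 2 and 3 differed by more than sampling noise. The alternatives, DESeq2 1.42.0 among them, are in the closing section. The fit was tested on simulated data, where it recovered most of the changed genes and the share of false calls was above the nominal threshold. Some genes that the rule names are not reported here.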

Additional observations from a re-analysis of the deposited data

How the results depend on the processing

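The count of genes past the test was 344 (176 higher in segment 2, 168 higher in segment 3, 83 at least 2-fold in both batches). Without the replicate block, 0 genes passed in either direction with edgeR, with 2936 at an unadjusted p under 0.05 and 1587 by DESeq2 with the block. DESeq2 gave 909 and 678 in the 2 directions, all 1587 agreeing between batches and 347 at least 2-fold. The 6 control libraries alone gave 43 (13 and 30; 36 at least 2-fold; 28 shared with the 344), and the 4 libraries of the 2 segments alone gave 162 (104 and 58; 144 at least 2-fold; 43 shared). Leaving out each library in turn gave 0 to 2384 genes, 0 to 1248 higher in segment 2, 0 to 1136 higher in segment 3, 0 to 2138 agreeing and 0 to 272 at least 2-fold in both batches; the lone library left in a segment is assumed to vary like the other groups. DESeq2 size factors gave 343, library totals 350, no filter on low counts 475 and a minimum count of 50 366, all within 1.5 times the main count. The 344 genes kept their direction in each setting, counting 338 that were tested at a minimum count of 50. Their segments did not overlap, so refits of the same counts could hardly change it. Of the 78 named genes, the 53 past the test all lost their call without the block and without segment 3 of batch 3097, 44 without segment 2 of batch 3017, 41 without segment 3 of batch 3017 and 3 without segment 2 of batch 3097. Taking segment 1 transcripts at 4 instead of 10 times segment 3 gave 313 genes at medians of 27.2% and 12.3% of segment 1 in batches 3017 and 3097, and taking them at 50 times gave 48 genes at 6.94% and 0.90%. The cause of these shifts was not tested. Depth was 30.5 to 39.3 M counts a library, and levels near 0.1 CPM rest on about 3 counts.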

Other observations

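Some secreted protein genes ran in opposite directions in the 2 batches and are given as values, chosen after they were seen. Rnase9 held 11.7 and 15.6 CPM in segment 2 and 8.97 and 309.6 CPM in segment 3, in the order of batches 3017 and 3097, and the segment 3 library of batch 3097 stood alone. Crisp4 held 68.1 and 16.1 CPM in segment 2 and 18.3 and 94.3 CPM in segment 3. Lypd8, a Ly6/Plaur domain gene, held 3319 and 10313 CPM in segment 2 and 10428 and 9037 CPM in segment 3. Defb30 held 37.7 and 17.9 CPM in segment 2 and 7.32 and 115 CPM in segment 3.

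Gm42418, whose locus overlaps ribosomal RNA repeat sequence, held 32560.4 and 28176 CPM in segment 2 and 24677 and 7529 CPM in segment 3 (log2 fold change 0.97 ± 0.49 SE, adjusted p = 0.322, edgeR), and 3699 and 2751 CPM in segment 1. Prm1, a sperm protamine transcript, held 21.1 and 15.4 CPM in segment 2, 14.6 and 7.40 CPM in segment 3 and 1.28 and 1.46 CPM in segment 1.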
